A study of Mus musculus with 12 samples.

Results

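The PD-closed distal loci that were also open in Hdac7SA.Mef2d are regions of accessible chromatin, away from promoters, at which 2 Hras-transformed fibroblast lines had no listed peak once the kinase MEK was inhibited. Another fibroblast line, which carries no Hras transgene, had the same regions open without treatment. They were selected on the presence or absence of ATAC-seq peaks. A locus had to have no peak in the lists of Hras.E1A+PD and Hras.Myc+PD and a peak in each of the lists of Hras.E1A, Hras.E1A+TSA, Hras.Myc, Hras.Myc+TSA and Hdac7SA.Mef2d. It also had to lie more than 1000 bp from every protein-coding transcription start site (TSS). The rule gave 6812 member loci of 147985 loci in all, after peaks of the 7 lists that overlapped by 1 bp or more had been merged. Of the 30335 distal loci open in the 5 lists without PD, the 6812 members made up 22.5%, which is the background share for subsets taken from all of those loci. Subsets near genes are read against the share over all genes, given with them. Since the peak lists chose the members, these counts describe the rule and carry no test.

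The cells were mouse embryonic fibroblasts (MEFs) from OG2 mice, which carry an Oct4-GFP reporter, although the growth protocol names an ICR background. They had been immortalized with pairs of transgenes. Hras.E1A+PD and Hras.Myc+PD cells received the MEK inhibitor PD0325901 for 2 days, with 2 libraries each. Hras.E1A+TSA and Hras.Myc+TSA cells received the histone deacetylase inhibitor trichostatin A for 2 days, with 1 library each. Untreated Hras.E1A, Hras.Myc and Hdac7SA.Mef2d cells had 2 libraries each. Hras.E1A cells carry oncogenic Hras with adenoviral E1A, Hras.Myc cells carry it with Myc, and Hdac7SA.Mef2d cells carry a serine-mutant Hdac7 with the transcription factor Mef2d. In all, 12 libraries of about 50000 cells each were deposited as 1 peak list per group, with replicates pooled. Values per replicate were not analysed here, therefore, and every interval below covers counting error over loci only. The sources used here do not say whether a line was 1 clone.

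Of 15 transcription factor genes that mark fibroblasts, 13 or 14 had a promoter locus with a peak in each of the 7 lists, and Prrx1, Meox1 and Tcf21 lacked one in at least 1 of the 3 untreated lists. Of 12 blood and macrophage markers, 3 or 4 did, and the defining genes Ptprc and Spi1 lacked one in at least 1 of the 3 untreated lists. Promoters of 15 to 17 of 19 epithelial genes were also open, so promoter peaks separate these cell types poorly. In bulk libraries, closing of a locus in every cell and a smaller number of cells with the locus open cannot be told apart.

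Distal accessible regions are mostly enhancers, short elements at which transcription factors bind and act on genes at a distance. The AP-1 factors, dimers of Fos and Jun proteins, are among the main factors that keep fibroblast enhancers open, and they recognize the palindrome-like word TGAGTCA, which reads TGACTCA on the other strand. Signaling from Ras through MEK to ERK raises the synthesis and stability of several Fos and Jun proteins, and MEK inhibitors block that step. CTCF, by contrast, marks insulators and loop anchors. Class IIa histone deacetylases such as Hdac7 act on genes mainly through MEF2 factors, to which they bind.

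The central 200 bases of 10 loci are shown because the results turn on the words in them. All are read 5′ to 3′ on the plus strand of NCBI RefSeq's GRCm38.p6, the assembly of the files' mm10 build. The first set holds members with AP-1 words, which are in capitals. In the members nearest to Etnk1, Hfm1 and Otog the word recurs 5 times. The members nearest to Ccdc54, Kitl and Egfr lie by genes described below, and the last lies inside Cdh1.
Etnk1 member, chr6:143365951-143366150: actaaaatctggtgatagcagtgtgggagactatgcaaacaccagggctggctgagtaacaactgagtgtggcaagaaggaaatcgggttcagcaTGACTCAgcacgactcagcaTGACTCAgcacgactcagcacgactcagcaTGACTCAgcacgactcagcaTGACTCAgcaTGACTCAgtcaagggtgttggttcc
Hfm1 member, chr5:106853349-106853548: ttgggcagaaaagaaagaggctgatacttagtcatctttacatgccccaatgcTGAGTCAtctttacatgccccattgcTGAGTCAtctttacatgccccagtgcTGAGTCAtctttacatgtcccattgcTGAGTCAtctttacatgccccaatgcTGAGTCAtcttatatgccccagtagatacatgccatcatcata
Otog member, chr7:46321339-46321538: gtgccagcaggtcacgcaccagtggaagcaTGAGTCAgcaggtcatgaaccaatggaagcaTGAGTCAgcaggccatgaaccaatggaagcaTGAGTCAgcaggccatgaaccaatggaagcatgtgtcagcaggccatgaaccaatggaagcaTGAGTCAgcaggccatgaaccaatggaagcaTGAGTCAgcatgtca
Ccdc54 member, chr16:50600859-50601058: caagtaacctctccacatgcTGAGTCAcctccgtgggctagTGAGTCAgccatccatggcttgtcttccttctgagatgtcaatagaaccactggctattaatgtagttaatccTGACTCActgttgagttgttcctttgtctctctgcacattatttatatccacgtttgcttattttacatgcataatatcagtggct
Kitl member, chr10:100032697-100032896: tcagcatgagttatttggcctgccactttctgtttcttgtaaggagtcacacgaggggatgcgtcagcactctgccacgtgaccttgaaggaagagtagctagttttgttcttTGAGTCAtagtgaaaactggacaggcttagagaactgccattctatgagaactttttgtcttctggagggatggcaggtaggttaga
Egfr member, chr11:16716759-16716958: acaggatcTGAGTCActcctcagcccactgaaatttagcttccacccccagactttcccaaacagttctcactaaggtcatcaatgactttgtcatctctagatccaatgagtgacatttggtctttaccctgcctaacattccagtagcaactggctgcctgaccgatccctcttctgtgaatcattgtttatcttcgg
Cdh1 member, chr8:106656142-106656341: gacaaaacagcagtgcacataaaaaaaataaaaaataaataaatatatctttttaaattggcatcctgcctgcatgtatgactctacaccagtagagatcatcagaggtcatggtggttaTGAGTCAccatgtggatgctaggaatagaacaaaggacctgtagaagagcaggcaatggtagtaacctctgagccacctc

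The second set holds members without either AP-1 word. Here capitals mark words that differ from it by 1 base. These are the member with the highest score in Hras.E1A among those without the word, nearest to Ofcc1, and the strongest member at Ctbp2.
Ofcc1 member, chr13:39849528-39849727: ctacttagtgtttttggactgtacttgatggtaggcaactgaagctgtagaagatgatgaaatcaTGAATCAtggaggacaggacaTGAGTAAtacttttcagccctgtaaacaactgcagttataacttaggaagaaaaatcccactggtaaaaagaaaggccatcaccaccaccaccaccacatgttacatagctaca
Ctbp2 member, chr7:133132785-133132984: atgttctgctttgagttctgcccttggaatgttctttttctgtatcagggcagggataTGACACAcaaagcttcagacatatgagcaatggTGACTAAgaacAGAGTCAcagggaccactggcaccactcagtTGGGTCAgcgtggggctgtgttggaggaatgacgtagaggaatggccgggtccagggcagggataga

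The last sequence is a distal locus that had a peak in all 7 lists, in an intron of Sept9, and its capitals mark a CTCF match.
Sept9 kept locus, chr11:117358329-117358528: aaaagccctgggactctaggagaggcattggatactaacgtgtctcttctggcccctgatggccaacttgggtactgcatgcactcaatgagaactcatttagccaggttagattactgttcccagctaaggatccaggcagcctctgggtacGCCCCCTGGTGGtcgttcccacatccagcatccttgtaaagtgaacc

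In the plus-strand sequence of the Etnk1 member, the words lie in a run of short units that repeat with small changes, and the Hfm1 and Otog members show longer repeated units. Among members with 3 or more AP-1 words in the central 200 bp, 24 of 71 (33.8%, 95% interval 23.0 to 46.0) carried the same 15 bases around at least 2 of the words, against 4 of 47 loci with peaks in all 7 lists (8.51%, 2.37 to 20.4). Repeat units of this kind can take reads that map to several places, and the sources used here do not state how such reads were treated. These loci were few. Of members with exactly 2 words, 16 of 818 had the same 15 bases around both (1.956%), and the median distance between the words was 48 bp, against 50 bp in the loci with peaks in all 7 lists.

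By median score, the member loci lay in the upper part of the Hras lists. Each deposited peak carries a score from the authors, whose scale is not stated. In Hras.E1A the median score of members was 7.21, at percentile 63.3 of that list, against 7.38 for the 17621 distal loci with peaks in all 7 lists, called kept loci here. In Hras.E1A+TSA the medians were 7.19 for members and 6.85 for kept loci. In Hras.Myc they were 7.22 for members and 7.01 for kept loci. In Hras.Myc+TSA they were 5.89 for members and 5.79 for kept loci. The quartile ranges of members and kept loci overlapped widely in those 4 lists. The lists differed in Hdac7SA.Mef2d, where members had a median of 5.31, at percentile 46.7, and kept loci a median of 6.36, at percentile 59.1. Grouped instead by their lowest score over the 5 lists, distal loci were members in 27.4% of cases in the lowest-scoring of 5 equal groups (26.3 to 28.6) and in 17.6% in the highest (16.7 to 18.6). These scores come from the lists that chose the members, so they are a description.

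**Figure D1:**
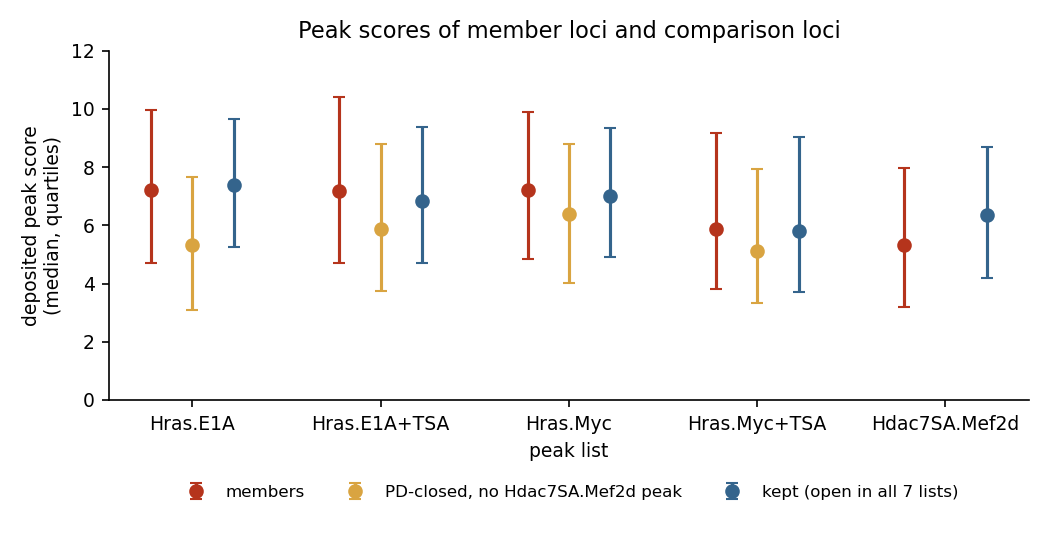
Deposited peak score on the y axis in the 5 lists without PD, for members (red), PD-closed loci without an Hdac7SA.Mef2d peak (yellow) and kept loci (blue). Points are medians and bars run between the quartiles. Members and kept loci had close medians in the Hras lists (7.21 and 7.38 in Hras.E1A), and members had the lower median in Hdac7SA.Mef2d (5.31 and 6.36).

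The edge of the rule was soft on the side of the scores. The lowest of the 5 scores was under 2 at 1224 of the 6812 members, while no list holds a score under 1.2. Just outside the rule, 507 of the 23523 distal loci that were open in the 5 lists and in at least 1 PD list had a top PD score under 2. Only 70 members had a peak of a PD list within 500 bp of their edge. The member nearest to a TSS lay 1002 bp away, and the farthest locus that missed the rule by distance alone lay 989 bp away. The 2 PD lists were the shortest, with 59823 peaks in Hras.E1A+PD and 56774 in Hras.Myc+PD. The other Hras lists held 67738 to 81201 peaks, and Hdac7SA.Mef2d held 119251. The closed side of the rule thus rests on the shortest lists. The number of members followed the length of the lists: when every list was brought to the length of the shortest by score, 2578 loci met the rule. Without the peaks below the lower quartile of score in each list it was 4455. As the depth of the libraries is unknown, a missing PD peak means that no peak was listed, not that no reads were there.

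The main feature that the members shared, and that the rule had not used, was the AP-1 word. It lay in the central 200 bp of 4669 of the 6812 members (68.5%, 67.4 to 69.6), against 3990 of 17621 kept loci (22.6%, 22.0 to 23.3). Over all 130940 distal loci of the series, 26.1% held it. Members are poorer in G and C than kept loci, so kept loci were weighted to the members' distribution over 10 bins of GC content. Their share was then 26.4%, and the ratio of members to kept loci was 2.59 (2.51 to 2.69). Under the 14 alternative settings this ratio lay between 2.27 and 3.03. At least 2 words were present in 13.1% of members (12.3 to 13.9), against 3.00% of kept loci (2.75 to 3.26).

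The word was placed at the middle of the loci. Within the whole 400 bp of the peaks, 63.4% of the 6473 words in members lay within 50 bp of the centre (62.2 to 64.6), against 54.9% in kept loci (53.6 to 56.2). The median distance from the centre was 36.5 bp in members and 44.5 bp in kept loci. PD-closed loci without an Hdac7SA.Mef2d peak lay near the members, with 61.0% of words within 50 bp (59.3 to 62.7) and a median of 38.5 bp. The densities came closer towards the edges of the peaks, where the outermost bins held 4.55 and 6.31 words per 1000 members, against 4.94 and 4.54 per 1000 kept loci.

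**Figure D2:**
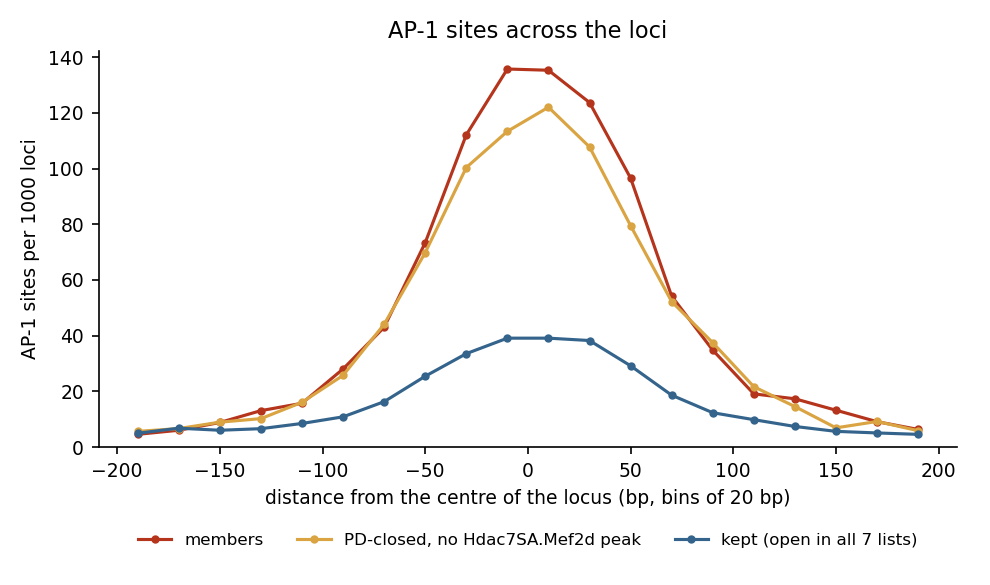
AP-1 words per 1000 loci on the y axis in bins of 20 bp, by distance from the centre of the locus on the x axis, for members (red), PD-closed loci without an Hdac7SA.Mef2d peak (yellow) and kept loci (blue). Members had 136 words per 1000 loci in the bin just left of the centre, against 39.1 in kept loci, and the curves came closer towards the edges.

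Closing with PD went with the number of AP-1 words. Among distal loci open in the 5 lists without PD, those with 2 or more words were members in 889 of 1864 cases (47.7%, 45.4 to 50.0), those with 1 word in 3780 of 9613 (39.3%, 38.3 to 40.3), and those without the word in 2143 of 18858 (11.4%, 10.9 to 11.8). The difference between 2 or more words and none was 36.3 percentage points (34.0 to 38.6), and that between 2 or more words and 1 was 8.37 points (5.91 to 10.8). Loci with 1 word exceeded loci without it by 28.0 points (26.9 to 29.0), so most of the difference lay at the first word. More than 2 words went with no further measurable share, since 71 of 150 loci with 3 or more words were members (47.3%, 39.1 to 55.6).

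The same order held in each of 5 equal groups of loci formed by their lowest score over the 5 lists. In the group with the lowest scores, 68.2% of loci with 2 or more words were members (61.6 to 74.3), against 15.8% of loci without the word (14.7 to 16.9). In the group with the highest scores, where the lowest score was at least 6.41, 32.9% of loci with 2 or more words were members (29.6 to 36.3), against 6.90% of loci without the word (5.98 to 7.91). Loci of the highest-scoring group were therefore less often members than those of the lowest-scoring group at each number of words. It also held across GC content. Among 5 groups of loci by GC content, in that with the lowest GC, 50.4% of those with the word were members (48.7 to 52.1), against 21.1% of those without (19.7 to 22.5). In that with the highest GC it was 18.2% of those with the word (15.9 to 20.7), against 3.51% of those without (3.00 to 4.09).

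**Figure D3:**
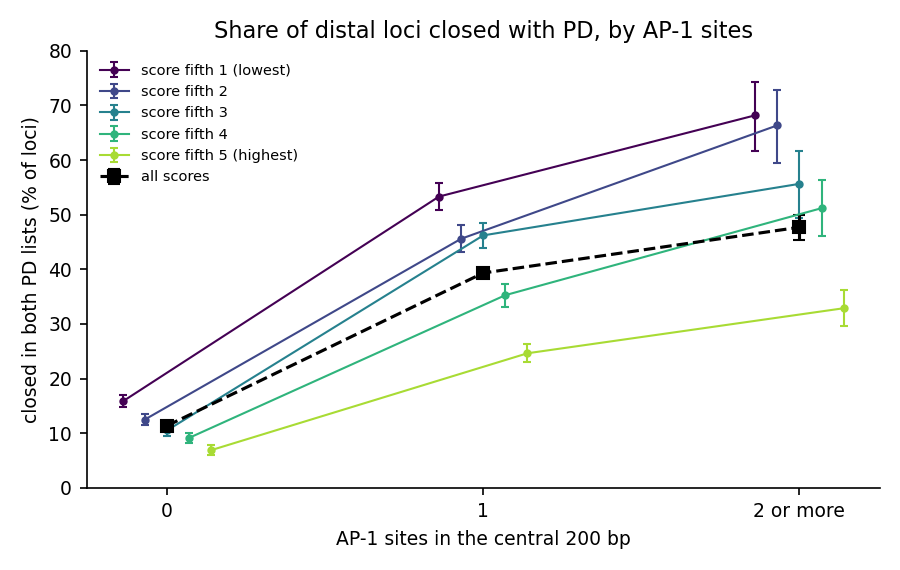
Percent of distal loci open in the 5 lists without PD that were members, on the y axis, by the number of AP-1 words in the central 200 bp on the x axis. Coloured lines are 5 equal groups of loci by lowest score, with group 1 the lowest,, the black dashed line is all loci, and bars are exact 95% binomial intervals. The share rose with the number of words in every group, and was highest in the lowest-scoring group (68.2% at 2 or more words).

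The 2143 members without the exact word mostly held a near copy of it. A word that differs by 1 base was present in 1735 of them (81.0%, 79.2 to 82.6), against 46.5% of the 13631 kept loci without the exact word, or 50.5% after weighting for GC content (ratio 1.60, 1.56 to 1.65). Of the 19 possible near copies, counted as strand pairs, 17 were more common in these members than in the kept loci and 2 gave intervals that held 1. TGACTAA, which reads TTAGTCA on the other strand, was in 26.3% of members without the exact word, against a weighted 6.30% of kept loci (ratio 4.17, 3.73 to 4.67). TGAATCA, or TGATTCA, was in 23.1% of them, against 5.94% of kept loci (3.88, 3.45 to 4.37). TGAGTAA, or TTACTCA, was in 14.1%, against 4.63% (3.06, 2.64 to 3.53). The near copies whose intervals held 1 were GGACTCA (1.22, 0.95 to 1.56) and TGACGCA (1.24, 0.81 to 1.88). The Ofcc1 member printed above has TGAATCA and TGAGTAA, and the Ctbp2 member has TGACTAA with 3 other near copies. Neither the exact word nor a near copy was found in 408 of the 6812 members.

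Bases on either side of the word made small differences. Among distal loci with exactly 1 word, the share that were members was 43.5% where the word was flanked as TTGAGTCAC (36.2 to 51.0) and 33.3% where it was flanked as CTGAGTCAG (29.4 to 37.5), each counted with its reverse complement. All 16 flanked forms gave shares between 22.2% and 43.5%. The lowest, TTGAGTCAA, rested on 36 loci (10.1 to 39.2). The presence of the word therefore separated members from kept loci more than its flanks did.

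All 7-base words were compared without regard to named motifs. Of 4363 words present in at least 2% of either set, counted as strand pairs, the 5 with the highest GC-weighted ratio of members to kept loci were CGACTCA (3.05, 2.34 to 3.99), CGAGTCA (2.69, 2.19 to 3.30), GAGTCAC (2.64, 2.48 to 2.80), TGACTCA (2.59) and GACTCAC (2.51, 2.34 to 2.68). Each of them is the AP-1 word, a near copy of it or the word shifted by 1 base. The 5 with the lowest ratio were GCGCCGC (0.07), GCGCCAC (0.07), GGCGCCC (0.08), CCCGCGC (0.11) and CGGCGGC (0.11). They consist of G and C apart from an A in GCGCCAC, and were present in 2.15% to 4.55% of kept loci and in at most 0.25% of members.

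Of 32 other motifs searched on both strands in the same window, 7 were more common in members than in kept loci, 11 were less common and 14 were neither, after GC weighting. The intervals of these 14 held 1, apart from NFI, which had no match in members and so no ratio. The intervals were not widened for the number of motifs. CTCF showed the largest difference. A match to its motif, given here by name only, was found in 8 members (0.12%), against 1321 of 17621 kept loci (7.50%), a weighted ratio of 0.02 (0.01 to 0.04). Of all distal loci 1.81% held one, and of PD-closed loci without an Hdac7SA.Mef2d peak 0.18% did, so its scarcity was shared with those loci. The ratio for AP-1 was 2.45 when kept loci with a CTCF match were left out, a setting added after seeing the data.

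Among motifs that were more common in members was CAGGAAG of the ETS factors, several of which are phosphorylated by ERK. It was in 13.6% of members, against a weighted 9.26% of kept loci (1.47, 1.36 to 1.59), and in 9.70% of all distal loci. Its ratio was 1.14 (1.01 to 1.29) among loci with the AP-1 word and 1.77 (1.57 to 1.99) among loci without it. Another ETS word, CCGGAAG, did not differ. It was in 1.13% of members, against a weighted 1.28% of kept loci, and its interval held 1 (0.88, 0.68 to 1.14). The SOX word CCATTGT was in 3.20% of members, against 2.23% of kept loci (1.44, 1.203 to 1.72) and 2.82% of all distal loci. The RUNX word TGTGGT was in 22.0% of members, against 19.3% of kept loci (1.14, 1.07 to 1.21) and 20.2% of all distal loci. The KLF word GGGNGTGG was in 6.24% of members, against 5.16% of kept loci (1.21, 1.08 to 1.35) and 5.59% of all distal loci. Among loci with the AP-1 word, the intervals of RUNX (1.08, 0.98 to 1.18) and KLF (1.15, 0.96 to 1.37) held 1. Among loci without it they left out 1, at 1.24 (1.13 to 1.35) for RUNX and 1.38 (1.17 to 1.62) for KLF. The word TGACNNNGC, bound by NFE2L2 with small MAF proteins, was in 16.6% of members and 10.9% of kept loci (1.52, 1.42 to 1.64), but it can overlap the AP-1 word. Its ratio was 1.51 (1.34 to 1.72) among loci without the exact AP-1 word and 1.05 (0.96 to 1.16) among loci with it. PBX-HOX, TGATTNAT, was in 8.21% of members and 6.08% of kept loci (1.35, 1.21 to 1.51). Its ratio turned direction, at 2.39 (2.07 to 2.76) among loci without the AP-1 word and 0.81 (0.68 to 0.97) among loci with it. In members without the AP-1 word, 246 of 284 such matches lay on the near copy TGATTCA. PBX-HOX and AP-1 matches are therefore not separate features there.

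Motifs that were less common in members included TEAD, SP, SRF and CRE. The TEAD word GGAATG was in 16.2% of members, against 19.3% of kept loci (0.84, 0.79 to 0.90) and 20.3% of all distal loci. TEAD factors bind the Hippo pathway coactivators Yap1 and Wwtr1. Among loci with an AP-1 word the difference was larger, with GGAATG in 14.9% of members and a weighted 22.3% of kept loci (0.67, 0.61 to 0.74). Among loci without it, GGAATG was in 18.9% of members and 18.0% of kept loci, and the interval held 1 (1.05, 0.95 to 1.16). Within 30 bp of the AP-1 word, GGAATG was found in 5.48% of members with that word, against 9.83% of kept loci with it (0.56, 0.48 to 0.65). The SP word GGGCGG was in 3.20% of members, against 5.81% of kept loci (0.55, 0.48 to 0.63) and 4.88% of all distal loci. The SRF motif, given by name, was in 0.91% of members, against 1.497% of kept loci (0.61, 0.46 to 0.81). The CRE word TGACGTCA, which binds CREB and ATF proteins, was in 0.34% of members, against 0.63% of kept loci (0.53, 0.34 to 0.85), and in 0.37% of all distal loci. Among loci without the AP-1 word its ratio was 0.97 (0.55 to 1.72). The E-box CAGGTG, bound by the Zeb and Snai repressors, turned direction with the AP-1 word. It was more common in members than in kept loci among loci with that word (1.29, 1.12 to 1.48) and less common among loci without it (0.61, 0.53 to 0.71).

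**Figure D4:**
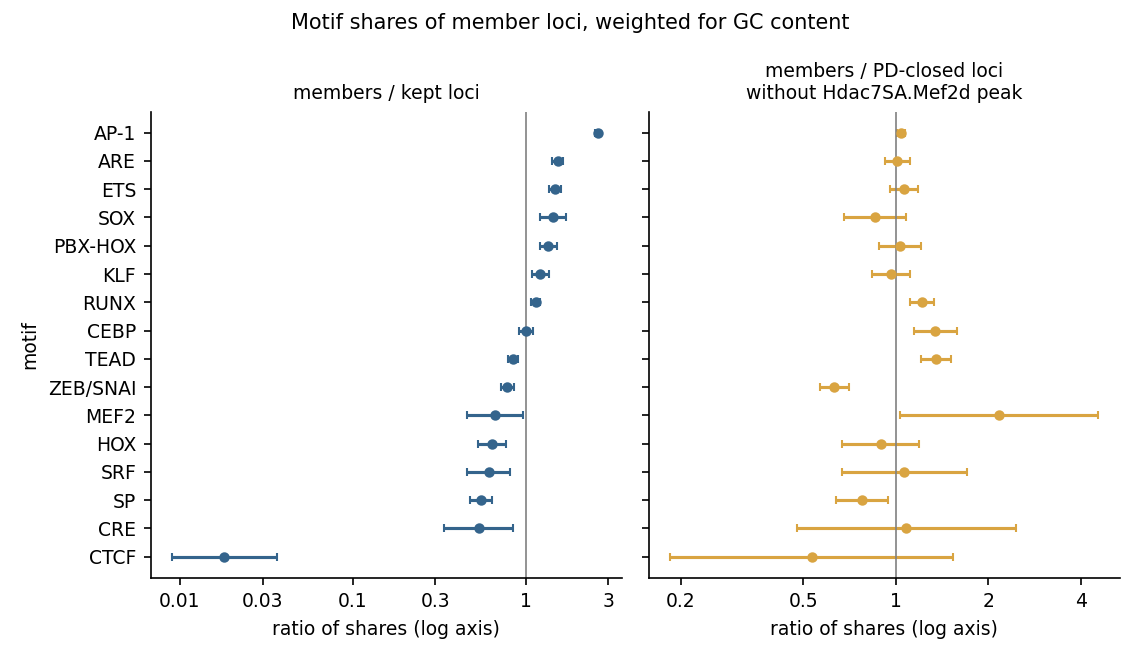
Ratio of the share of members with a motif to the share in kept loci (left) and in PD-closed loci without an Hdac7SA.Mef2d peak (right), on log axes, after GC weighting. Points are ratios, bars are 95% intervals for counting error and the grey line is at 1. AP-1 had the highest ratio (2.59) and CTCF the lowest (0.02) against kept loci, while AP-1 lay close to 1 (1.04) on the right.

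The second comparison set was the 3924 distal loci that closed with PD in both Hras lines in the same way but had no peak in Hdac7SA.Mef2d. By the rule, these loci and the members differ in the Hdac7SA.Mef2d list alone, but they also had lower scores than members in the Hras lists, with medians of 7.21 for members and 5.31 for those loci in Hras.E1A and of 7.22 and 6.40 in Hras.Myc. AP-1 hardly separated them. The word was in 68.5% of members, against 65.2% of those loci (63.7 to 66.7), and the GC-weighted ratio was 1.04 (1.01 to 1.07). This ratio was 1.00 (0.97 to 1.03) when the loci were also weighted by score, and 1.02 (0.996 to 1.05) over the whole 400 bp, and both intervals held 1. At least 2 words were in 13.1% of members (12.3 to 13.9), against 8.54% of those loci (7.68 to 9.46). Near copies were equally frequent where the exact word was missing, with a ratio of 1.00 (0.96 to 1.04).

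Of the 32 other motifs, 4 were more common in members than in PD-closed loci without an Hdac7SA.Mef2d peak, and 2 were less common. TEAD was in 16.2% of members, against a weighted 11.99% (1.35, 1.205 to 1.51). The CEBP word TTGCNNAA was in 8.78% of members, against 6.53% (1.34, 1.14 to 1.58), and in 10.2% of all distal loci. RUNX was in 22.0% of members, against 18.1% (1.21, 1.11 to 1.33). The MEF2 motif, given by name, was in 39 members (0.57%), against 10 of 3924 loci (0.25%), with a ratio of 2.17 (1.03 to 4.55). It was thus rare in both sets, and members held it less often than kept loci (0.66, 0.45 to 0.96) and than all distal loci (0.96%). The E-box CAGGTG was in 9.60% of members, against 15.2% of PD-closed loci without an Hdac7SA.Mef2d peak (0.63, 0.57 to 0.70), and in 9.12% of all distal loci. The 7-base words that contain this E-box, ACACCTG and ACAGGTG, had ratios of 0.49 and 0.51. The SP word also was less common, with a ratio of 0.78 (0.64 to 0.94). The TEAD, RUNX, CEBP and E-box differences had intervals that left out 1 both among loci with and among loci without the AP-1 word. For the E-box these were ratios of 0.62 (0.55 to 0.71) with the AP-1 word and 0.63 (0.52 to 0.77) without it. When the loci were weighted by GC content and lowest score together, the ratios were 1.39 for TEAD (1.23 to 1.57), 1.19 for RUNX (1.08 to 1.31) and 1.37 for CEBP (1.16 to 1.62).

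Member loci lay far from promoters. Their median distance to the nearest protein-coding TSS was 35940 bp, against 23380 bp for kept loci and 28847.5 bp for PD-closed loci without an Hdac7SA.Mef2d peak. Of members, 40.6% were more than 50000 bp away, against 27.6% of kept loci, a difference of 13.0 points (11.7 to 14.3). The share of distal loci that were members was 17.4% between 1000 and 5000 bp from a TSS (16.0 to 18.9), 20.6% between 10000 and 50000 bp (19.9 to 21.3) and 32.3% beyond 100000 bp (31.0 to 33.6). The share of members with the AP-1 word stayed between 65.2% and 70.3% over all 5 distance ranges. Inside genes lay 52.0% of members and 50.7% of kept loci, a difference of 1.33 points whose interval held 0 (-0.07 to 2.73). Of PD-closed loci without an Hdac7SA.Mef2d peak 56.7% lay inside genes, and members differed from them by -4.68 points (-6.63 to -2.72). Members overlapped an exon in 4.83% of cases, against 9.41% of kept loci, a difference of -4.58 points (-5.23 to -3.898).

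The members had a median GC content of 47.0%, against 51.0% in kept loci, and 17.4% had no CpG in the central 200 bp, against 7.29% of kept loci. Sequence masked as repeat made up at least 50% of the window in 5.30% of members (4.78 to 5.86), against 2.46% of kept loci (2.23 to 2.70). PD-closed loci without an Hdac7SA.Mef2d peak were close to members in this, with 5.76% (5.05 to 6.53). The AP-1 ratio without such loci was 2.57. Members were found on every chromosome but Y. The share of distal loci that were members was highest on chromosome X, with 184 of 608 loci (30.3%, 26.6 to 34.1), and lowest on chromosome 7, with 325 of 1793 (18.1%, 16.4 to 19.99), chromosome Y with its 2 loci aside.

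Members tended to lie beside other members. Among members with another distal locus of the 5 lists within 12.5 kb, the nearest was also a member in 823 of 2837 cases (29.0%, 27.3 to 30.7), while beside kept loci it was a member in 1410 of 8365 cases (16.9%, 16.1 to 17.7). Long runs were rare. When members within 12.5 kb of each other were joined, 5842 stood alone and 970 (14.2%) fell into 456 stretches of 2 or more, of which 6 held 4 or more. The stretch with most members held 6 over 26540 bp on chromosome 3 (105202228 to 105228767, nearest TSS 4930564D02Rik). All 6 carried the AP-1 word. None of the 8 loci of Hras.E1A in that stretch had a peak in Hras.E1A+PD, which the rule had fixed for the 6 members. Of the other stretches with 4 members, 4 lay inside Agpat3 (chromosome 10, 78290943 to 78312438), inside Rptor (chromosome 11, 119777272 to 119796799), near Ddr1 and Ier3 (chromosome 17, 35758780 to 35795594) and near Mtap (chromosome 4, 89044007 to 89062029). In the stretch in Rptor the 4 loci of Hras.E1A were the 4 members, so the rule itself left them without a peak in Hras.E1A+PD. Near Mtap the rule fixed this for 4 of the 5 loci of Hras.E1A, and the remaining locus also had no such peak. The other 2 stretches were not wholly closed. Hras.E1A+PD had a peak at 1 locus in the stretch in Agpat3, where Hras.E1A had 6 loci. Near Ddr1 and Ier3 it had a peak at 2 loci, where Hras.E1A had 7.

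Genes were counted by their nearest TSS within 50000 bp, which does not show that a locus acts on that gene. Within that distance 20667 distal loci were open in the 5 lists and 4047 of them were members (19.6%). They fell to 3229 of 10257 genes, at most 6 to a gene, and 145 genes had 3 or more. The 12 genes described here had 4 to 6 members each. Of those with 4 members, 8 were taken by their number of members within 10000 bp, and 18 further genes also had 4. All 12 but Ccdc54 and Kitl held kept loci as well.

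Ctbp2, which encodes a transcriptional corepressor, had 6 members among 10 distal loci open in the 5 lists, and 3 were kept. Its strongest member, 9318 bp upstream (chromosome 7, 133132685 to 133133084), scored 13.1 in Hras.E1A, 15.8 in Hras.E1A+TSA, 15.1 in Hras.Myc, 21.02 in Hras.Myc+TSA and 17.3 in Hdac7SA.Mef2d, with no peak in either PD list. The other 5 Ctbp2 members scored lower, between 1.45 and 13.1. Ccdc54 had 6 members among 6 distal loci, on both sides of its TSS, and 5 of them carried the AP-1 word. Its strongest member, 9605 bp upstream (chromosome 16, 50600759 to 50601158), holds 3 words and scored 11.7 in Hras.E1A, 14.4 in Hras.E1A+TSA, 11.7 in Hras.Myc, 10.6 in Hras.Myc+TSA and 8.77 in Hdac7SA.Mef2d. No promoter locus of Ccdc54 had a peak in any of the 7 lists, so its loci closed beside a gene without an open promoter.

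Slc44a1, a choline transporter, had 6 members among 9 distal loci, of which 5 carried the AP-1 word and 5 lay in its introns. Arhgef3 had 5 members among 9, all in introns and all with the AP-1 word. The member 11097 bp downstream of an Arhgef3 TSS (chromosome 14, 27249136 to 27249535) scored 9.58 in Hras.E1A, 17.2 in Hras.E1A+TSA, 15.3 in Hras.Myc, 19.0 in Hras.Myc+TSA and 11.4 in Hdac7SA.Mef2d. It was the strongest of the 5 in 4 of the lists.

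Kitl, the ligand of the receptor tyrosine kinase Kit, had 4 members among 4 distal loci, all in its introns and all with the AP-1 word. The one 16681 bp downstream of its TSS (chromosome 10, 100032597 to 100032996) scored 6.69 in Hras.E1A, 5.32 in Hras.E1A+TSA, 9.48 in Hras.Myc, 7.92 in Hras.Myc+TSA and 6.90 in Hdac7SA.Mef2d. The members 4489 and 8750 bp downstream were weak, with 1.49 and 2.26 in Hras.E1A. The promoter of Kitl kept its peak in both PD lists. Lrp5, a Wnt coreceptor, had 4 members among 5 distal loci, Mfap3l 4 among 6, Luzp1 4 among 5 and Phf2, a histone demethylase, 4 among 5. Agpat3, an acyltransferase of phospholipid synthesis, had 4 among 8, Mbp, which encodes myelin basic protein, 4 among 9, and Sept9, a septin of the cytoskeleton, 4 among 14. The strongest Mfap3l member scored 26.0 in Hras.E1A+TSA and 12.3 in untreated Hras.E1A. Scores of different lists are not on a stated common scale, so no change with TSA is read from them.

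Across 23 gene lists the share of members was close to the 19.6% over all genes. It was above it in 13 lists and below it in 10, with a median of 20%. Only the interval of the KLF factors, zinc finger proteins of which Klf4 is a reprogramming factor, lay above it, with 10 members of 25 distal loci (40.0%, 21.1 to 61.3). Klf2, Klf4 and Klf9 had 2 members each. Within 10000 bp of a TSS, however, the KLF genes had no member among 4 distal loci, and 8 of the 23 lists lay above the 17.5% over all genes. No list had an interval below the share over all genes at 50000 bp. The gene lists thus gave little separation.

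At Egfr and Mmp3, all distal loci open in the 5 lists were members. Egfr, the receptor for epidermal growth factor, had 3 members of 3, each with the AP-1 word, at 35145 and 16593 bp upstream and 38990 bp downstream of its nearest TSS. The first of them (chromosome 11, 16716659 to 16717058) scored 9.34 in Hras.E1A, 10.4 in Hras.E1A+TSA, 8.25 in Hras.Myc, 9.03 in Hras.Myc+TSA and 3.95 in Hdac7SA.Mef2d. Met, the receptor for hepatocyte growth factor, had 2 of 4, both with the AP-1 word, and no kept locus. The growth factor receptors had 12 members of 41 distal loci (29.3%, 16.1 to 45.5). Mmp3, a secreted metalloproteinase, had 2 of 2, and Plau, the urokinase, 2 of 4. The list of invasion genes known as AP-1 targets had 11 of 33 (33.3%, 18.0 to 51.8), so its interval held the share over all genes. Collagens had 13 of 40 (32.5%, 18.6 to 49.1), with 2 each at Col3a1, Col1a2 and Col4a1.

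The integrins and focal adhesion list had 21 of 98 (21.4%, 13.8 to 30.9). In it, the integrin gene Itgav had 3 of 6, the actin crosslinker gene Actn1 3 of 7 and Tns1, a tensin, 3 of 17. All 3 Actn1 members carried the AP-1 word and none of the 3 Tns1 members did. The Tns1 members were weak, with scores of 1.33 to 1.83 in Hras.E1A, where the lowest listed score was 1.2. The Actn1 members scored 4.87 to 13.4 there. Cytoskeletal lists were similar, with 8 of 42 for actin and SRF targets (2 at Myh9) and 11 of 45 for the spectrin skeleton (2 each at Add2, Sptbn1 and Epb41).

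Genes of the pathways most tied to the treatment did not stand out. The ERK feedback inhibitors, the Dusp, Spry and Spred genes, had 5 members of 43 distal loci (11.6%, 3.89 to 25.1), and no gene among them had 2. The AP-1 factor genes themselves had 6 of 39 (15.4%, 5.86 to 30.5). Genes known to be induced by ERK had 12 of 52 (23.1%, 12.5 to 36.8), with 3 each at Elk3 and Ier3 and 2 at Ier5. The TEAD and Hippo genes had 12 of 67 (17.9%, 9.61 to 29.2), with 3 each at Wwtr1 and Amotl1 and 2 at Tead1. The TGF-beta pathway had 7 of 45, with 2 each at Ltbp1 and Bmpr1a. The MEF2 and class IIa HDAC genes had 1 of 16, and the pluripotency genes 3 of 27 (11.1%, 2.35 to 29.2).

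**Figure D5:**
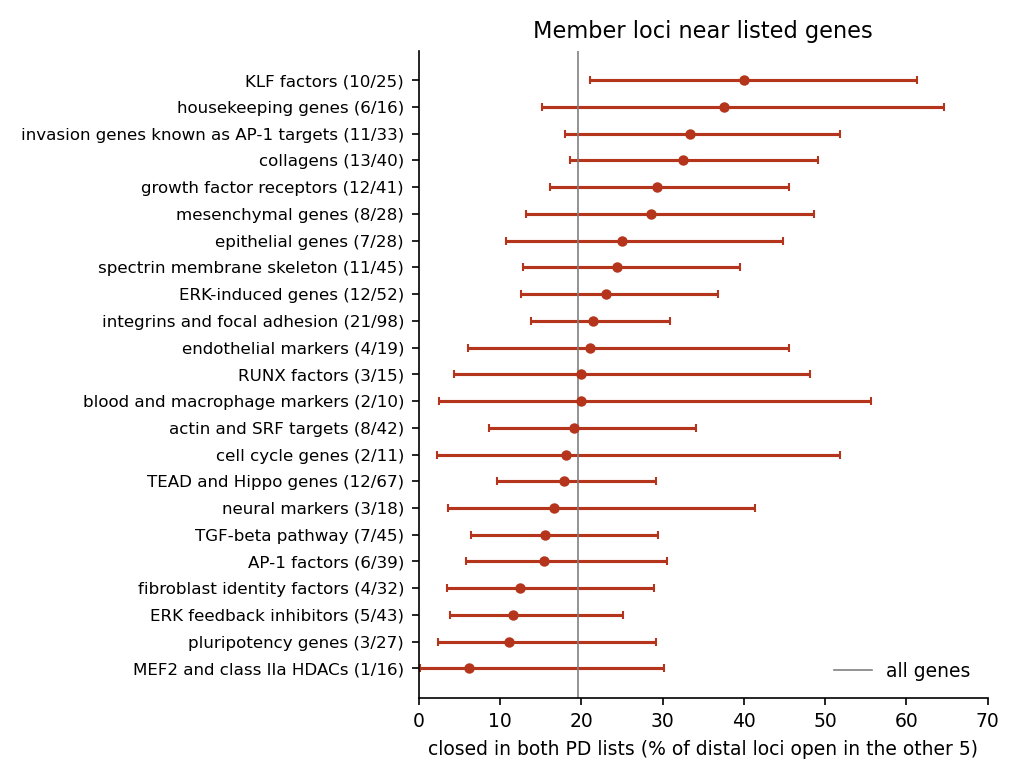
Percent of distal loci open in the 5 lists without PD that were members, on the x axis, for loci within 50000 bp of a TSS of each gene list. Points are shares, bars are exact 95% binomial intervals, the counts stand in brackets and the grey line is the share over all genes. The lists spread around 19.6%, and only the interval of the KLF factors (10 of 25) lay above it.

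Lists that mark cell states gave the following. Mesenchymal genes had 8 members of 28 distal loci (28.6%, 13.2 to 48.7), with 2 each at Cdh2 and Postn, and epithelial genes had 7 of 28 (25.0%, 10.7 to 44.9), with 2 each at the tight junction gene Ocln and the epithelial regulator Grhl2. Fibroblast identity factors had 4 of 32, RUNX factors 3 of 15 and cell cycle genes 2 of 11. Neural markers had 3 of 18, with 2 at Map2, endothelial markers 4 of 19 and blood and macrophage markers 2 of 10. Housekeeping genes, which serve as a comparison, had 6 of 16 (37.5%, 15.2 to 64.6), with 2 at Ywhaz. Small lists thus reached shares as high as any other by a few loci.

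Of the genes that the study names, Cdh1 encodes the epithelial cadherin. No member had its nearest TSS at Cdh1, but 1 member lay in an intron of Cdh1, 26627 bp upstream of the TSS of the neighbouring gene Tango6 (chromosome 8, 106656042 to 106656441). It holds 1 AP-1 word, printed above, and scored 7.72 in Hras.E1A, 15.5 in Hras.E1A+TSA, 6.85 in Hras.Myc, 15.7 in Hras.Myc+TSA and 11.98 in Hdac7SA.Mef2d. It had no peak in either PD list. Another distal locus 4912 bp downstream of a Cdh1 TSS closed with PD in both Hras lines but had no peak in Hdac7SA.Mef2d. Not all loci at Cdh1 closed. Of its 2 distal loci open in the 5 lists, 1 was kept, 16202 bp downstream. The other, 11303 bp downstream, had a peak in Hras.Myc+PD but none in Hras.E1A+PD. The promoter locus of Cdh1 had a peak in both PD lists. Epcam, an epithelial adhesion molecule, had 1 distal locus open in the 5 lists, which was kept, and a further one 25833 bp upstream that closed with PD in both Hras lines and had no peak in Hdac7SA.Mef2d. Isl1 had 2 distal loci open in the 5 lists, and both were kept. Tcf7l2, a Wnt effector, had 2 members of 8 distal loci and 6 kept loci. Of the endogenous mouse genes that correspond to the transgenes, Mef2d had 1 member of 5 distal loci, 13913 bp upstream, which scored 11.1 in Hras.E1A, 2.79 in Hras.E1A+TSA, 8.79 in Hras.Myc, 5.73 in Hras.Myc+TSA and 8.69 in Hdac7SA.Mef2d. Hdac7 had no member among 4 distal loci and Myc none among 2. Hras had no distal locus that was open in the 5 lists.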

How the data were processed

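ATAC-seq, which marks open chromatin by transposase insertion, was carried out on 12 libraries of 7 groups. Per the submitters' processing notes, reads were aligned with Bowtie2 2.4.5 to mm10 and peaks were called with MACS2 2.2.7.1. The study's methods add that weak peaks were recovered by sharing peak information between samples, so presence in a list is not fully independent of the other lists. The authors deposited 1 list per group, with replicates pooled in a way not given in the sources used here. Each deposited peak is 400 bp wide and has a score of unstated scale. Depth is unknown, and no p-value over replicates was possible.

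Peaks were merged into loci where they overlapped by 1 bp or more. Distances and gene annotation came from GENCODE basic protein-coding transcripts, and sequence from NCBI RefSeq GRCm38.p6. The central 200 bp of each locus, read on either strand, served for motif matching. Shares carry exact (Clopper-Pearson) 95% intervals, differences Newcombe intervals, and ratios log-normal intervals after weighting comparison loci over 10 GC bins. A ratio was called where its interval left out 1. The intervals cover counting error only, treat neighbouring loci as independent and were not adjusted for the number of motifs. Distances from a TSS are to the nearest edge of the locus. The members, gene lists and motifs were chosen with earlier results of these data known. The named genes were the 12 with most members within 50000 bp (ties by the count within 10000 bp, then by symbol, predicted genes left out), up to 3 of each list with at least 2 members, and genes that the study names or expressed. Loci were those with most AP-1 words, the longest stretches and the member in Cdh1, and words were the 5 with the highest and lowest ratios. The Egfr and Ofcc1 members and the kept Sept9 locus were chosen for printing after their values were seen.

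The alternatives changed the lists, the limits, the motif window and the weighting. Settings without CTCF loci, with TSS distance weighting, without repeat-masked loci and with score weighting of 6 other motifs were added after seeing the data. The computations used Python 3.11.15, NumPy 2.4.6, pandas 2.3.3, SciPy 1.17.1, pysam 0.24.0 and matplotlib 3.10.9, and were tested on simulated data.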

Additional observations from a re-analysis of the deposited data

How the results depend on the processing

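The number of members was 2578 with lists of equal length and 4455 without the peaks below the lower quartile of score, and between 6336 and 6812 under 5 other settings. The AP-1 ratio to kept loci lay between 2.27 and 3.03 over 14 alternatives, and the difference in the share closed between 2 or more AP-1 words and none lay between 31.2 and 36.8 points over 9. The ratio and the difference stayed on their side of the threshold in all of these. Asking that peaks cover 50% of the locus left every value as it was, so that setting adds no check. Of the 6812 members, 6781 were 400 bp wide, the width of a single peak. Using the TSS of all basic transcripts also gave 6812 members and a ratio of 2.59. The AP-1 ratio to PD-closed loci without an Hdac7SA.Mef2d peak was 1.02 in a 400 bp window and 1.00 with GC and score weighting, where the intervals held 1, and kept its side of the threshold under 10 others. The 6 other motifs that differed from those loci still did with GC and score weighting. The gene body difference from kept loci was -0.999 points (-3.19 to 1.202) with lists of equal length and 1.93 points (0.47 to 3.38) over 5000 bp from a TSS. Of the 32 other motifs, 18 differed from kept loci, against 17 in a 100 bp window and 22 without GC weighting. With the TSS limit at 10000 bp, 8 gene lists lay above the share over all genes, against 13 at 50000 bp. The cause of these changes was not tested.

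No paired analysis was possible because each group has 1 list in which the replicates are pooled. Leaving out a replicate could not be run for the same reason. Unknown depth limits every statement on a missing peak.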

Other observations

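The distal loci that closed with PD in only 1 of the Hras lines, and were open in the 5 lists without PD, differed from each other in the AP-1 word. It was present in 1962 of 3193 loci that closed in Hras.E1A alone (61.4%, 59.7 to 63.1) and in 856 of 2709 loci that closed in Hras.Myc alone (31.6%, 29.8 to 33.4). The members, which closed in both lines, had 68.5%, and kept loci 22.6%.

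Promoters of the genes with most members rarely lost their peak with PD. Of the 145 genes with 3 or more members, 130 had an open promoter in untreated Hras.E1A and 124 of those kept it in Hras.E1A+PD (95.4%, 90.2 to 98.3). In Hras.Myc, 121 of 125 kept it with PD (96.8%, 92.0 to 99.1). Among genes with distal loci open in the 5 lists but no member, the shares were 95.8% in Hras.E1A (95.2 to 96.3) and 95.03% in Hras.Myc (94.4 to 95.6). At promoters, 150 of 12714 loci open in the 5 lists had the peak pattern of the members.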
